A study of Mus musculus with 2 samples.

Results

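The cells described here are dividing T cells of mouse liver, 60 of 23889 cell barcodes kept from a droplet single-cell RNA-sequencing experiment. They were chosen by raw counts of unique molecular identifiers (UMIs, each standing for 1 captured RNA molecule). A barcode was a member when it had at least 300 detected genes, at most 20% mitochondrial UMIs, at least 2 UMIs of Cd3d, Cd3e and Cd3g together, and at least 2 UMIs of Mki67 and Top2a together. It also had to hold 0 UMIs of Cd79a (B cells) and Clec4f (Kupffer cells), and at most 1 UMI of Stab2 and Ptprb (endothelial cells). The rule found 43 cells in the knockout library and 17 in the wild-type library. T cells that passed the Cd3 and exclusion steps are called gated T cells. They numbered 431 in the KO library and 540 in the WT library, and the 364 KO and 479 WT cells among them with 0 UMIs of Mki67 and Top2a are called non-dividing.

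The study measured liver of mice labelled SLC22A18-/- (KO) and SLC22A18+/+ (WT), with 1 library of each. The series title links the imprinted transporter gene Slc22a18 to allergy, short stature and fatty liver through beta-catenin and Ascl2. The sources used here give neither strain, age, sex and number of animals nor which exons were deleted. With 1 library per genotype no test could be run, and genotype, animal and preparation cannot be told apart. All intervals are 95% intervals that cover counting error only. Slc22a18 itself had 2 UMIs in the KO members and 4 in the WT members, and Ascl2 had 0 in both, so neither checks the labels.

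T cells in a resting liver mostly do not divide. When a T cell is activated through its receptor it enters the cell cycle, copies its DNA in S phase and separates the copies in mitosis. Mki67 encodes a protein of the mitotic chromosome surface and Top2a encodes the topoisomerase that untangles the copied DNA, and both are made mainly in S phase, G2 and mitosis. Liver T cells include CD8 cells, which carry the co-receptor chains Cd8a and Cd8b1 and can kill with granzymes, CD4 helper cells, gamma delta T cells, and innate-like T cells such as NKT cells, which need the transcription factor Zbtb16 (PLZF).

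The libraries held 103478998 UMIs in 11741 barcodes (KO) and 105556354 UMIs in 12796 barcodes (WT), of which 11458 and 12431 were kept. A dividing T cell had a median of 11528 UMIs in the KO library (lowest 1781, highest 35236) and of 10585 in the WT library (lowest 4667, highest 30099). Non-dividing T cells were shallower, with medians of 5466.5 UMIs in KO and 5225 in WT. A doublet caller marked 1 KO and 1 WT member. The libraries shared 35 kept barcodes, among them 1 KO member, and no member barcode was a member in both.

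The label holds for most of the cells as T cells and is uncertain for a few. The 3 Cd3 genes chose them, but the constant regions of the alpha beta receptor did not, and 42 of 43 KO members and 17 of 17 WT members had a UMI of Trac, Trbc1 or Trbc2. Trac alone was found in 33 of 43 KO and 13 of 17 WT members. The other 11 genes of the T cell marker list, beside the 3 Cd3 genes, all had UMIs in both libraries. Ncr1, an NK and ILC1 marker, had a UMI in 3 of 43 KO and 2 of 17 WT members. In non-dividing T cells it was found in 15.1% in KO and 14.0% in WT. A KO member with 5 Ncr1 UMIs, a KO member with 2 and a WT member with 4 had Cd3g but 0 UMIs of Cd3d, Cd3e and Trac. They all had Trbc1 and Trbc2 UMIs, so a UMI of the constant regions does not set them apart. Whether such members are NK cells was not tested. Of the label genes, Cd3e, which the rule used, was found in 34 of 43 KO members and 15 of 17 WT members. Gzmb, the granzyme in the label, was found in 28 of 43 KO members and 6 of 17 WT members, so it does not mark all of them.

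Markers of other cells were present at low levels. The 10 hepatocyte genes summed to 3429 counts per 1000000 UMIs (CPM) in KO members and 3452 CPM in WT members, against 5956 CPM in KO and 6445 CPM in WT non-dividing T cells. The 11 Kupffer cell genes summed to 201 CPM in KO members and 178 CPM in WT members, with Clec4f, which the rule set to 0, and Timd4 at 0 in both. The 10 B cell genes summed to 154 CPM in KO members and 164 CPM in WT members, with Cd79a, also set by the rule, and Pax5 at 0 in both. The 10 NK and ILC1 genes summed to 524 CPM in KO members and 547 CPM in WT members. Thymocyte genes (Rag1, Rag2, Dntt, Ptcra) had 0 UMIs in KO members and 1 in WT members. The part of these markers in the results below was not tested.

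Dividing cells made up a larger part of the T cells in the KO library. The 43 members were 9.98% of 431 gated T cells in KO (exact binomial interval 7.31 to 13.2%), and the 17 members were 3.15% of 540 in WT (1.84 to 4.99%). The ratio of these shares, KO over WT, was 3.17 (1.83 to 5.48, log-normal approximation). T cells as such were not more frequent, with 3.76% of kept barcodes in KO and 4.34% in WT. Division in the other cells was not higher either. Dividing barcodes without any Cd3 UMI were 2.95% of such barcodes in KO and 3.47% in WT, a ratio of 0.850 (0.733 to 0.987).

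The difference lay in the cells with many Mki67 and Top2a UMIs. Just outside the threshold, 24 KO and 44 WT gated T cells had exactly 1 such UMI, and just inside it 8 KO and 7 WT cells had exactly 2. Cells with 4 or more numbered 32 of 431 in KO and 5 of 540 in WT, and cells with 10 or more numbered 24 in KO and 4 in WT. With 1 UMI enough to call a cell dividing, the ratio of shares was 1.38 (0.996 to 1.90), while with at least 4 it was 8.02 (3.15 to 20.4). Only 2 or 3 gate UMIs were found in 11 of 43 KO members and 12 of 17 WT members. KO members had a median of 11 gate UMIs (2 to 64) and WT members a median of 3 (2 to 32).

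**Figure D1:**
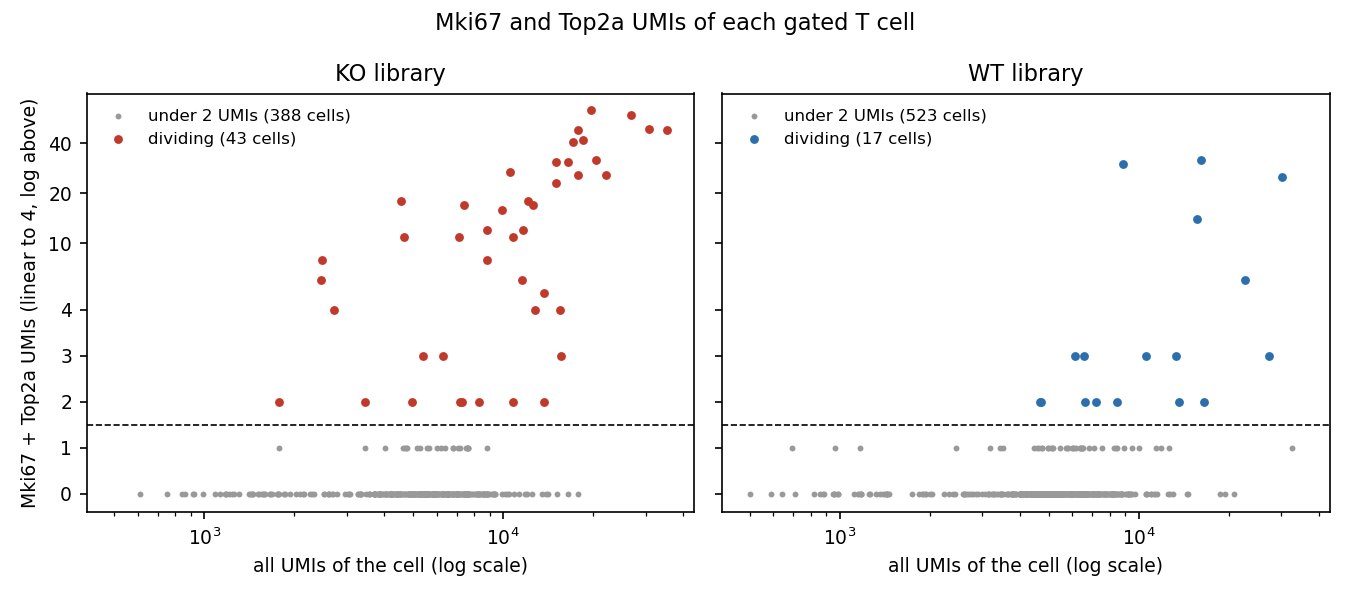
Mki67 plus Top2a UMIs (vertical axis, linear up to 4 and log above) against all UMIs of the cell (horizontal axis, log scale) for every gated T cell, with the KO library on the left and the WT library on the right. Coloured points are the 43 KO and 17 WT dividing T cells, grey points the other gated T cells, and the dashed line the threshold; 24 KO and 4 WT cells have at least 10 such UMIs.

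The same was seen with genes that the rule did not use. The DNA replication list (26 genes) and the mitosis list (30 genes) hold neither Mki67 nor Top2a. At least 20 UMIs of these lists were found in 39 of 431 gated T cells in KO (9.05%) and 9 of 540 in WT (1.67%), a ratio of 5.43 (2.66 to 11.1). At least 10 were found in 45 KO and 20 WT cells, a ratio of 2.82 (1.69 to 4.70). Of the members, 38 of 43 in KO reached 10, against 8 of 17 in WT. The other 9 WT members, with 1 to 8 list UMIs, thus showed little of the replication and mitosis programme at their depth. The rule also took a smaller part of the WT cells with at least 10 list UMIs. Of such cells, 38 of 45 in KO and 8 of 20 in WT were members, and 5 in KO and 11 in WT were among the non-dividing T cells.

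The exclusion of other cells' genes sets how many cells are counted. It removed 43 KO and 41 WT barcodes that had the Cd3 and gate UMIs, with medians of 17530 UMIs in KO and 21501 in WT, deeper than the members. Of these, 28 in KO and 20 in WT held at most 2 UMIs of each pair of excluded genes. The doublet caller marked 3 of the removed KO barcodes and 8 of the removed WT barcodes. Allowing up to 2 UMIs in each pair gave 71 of 564 T cells in KO (12.6%) and 37 of 707 in WT (5.23%), a ratio of 2.41 (1.64 to 3.52). With no exclusion at all the ratio was 1.87 (1.36 to 2.56). After thinning each cell to 3000 UMIs before the rule was applied, which left out 58 KO and 56 WT gated T cells as too shallow, it was 2.81 (1.61 to 4.91). The exclusion then acted on the thinned counts and let in barcodes that it removed at full depth. Gated T cells numbered 433 in KO and 545 in WT there, so depth and exclusion both changed. The ratio of shares was above 1 with its interval in each of these settings, and its size depended on the rule. The gate with up to 2 UMIs in each pair is called the looser gate, and its values are given for the main differences between KO and WT below.

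**Figure D2:**
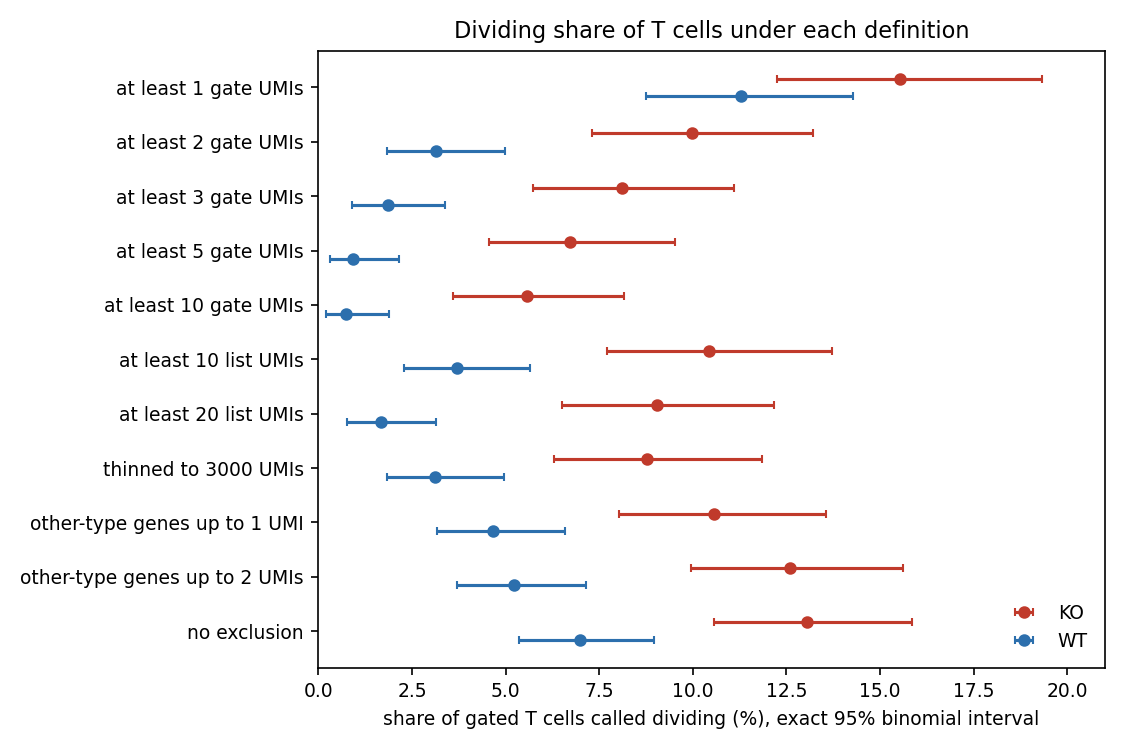
Share of gated T cells called dividing, in percent with exact 95% binomial intervals, under 11 definitions, KO above WT in each. Gate UMIs are Mki67 plus Top2a and list UMIs are those of the replication and mitosis lists. The KO share lies above the WT share under each definition plotted, and the intervals overlap with at least 1 gate UMI.

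Compared with non-dividing T cells, 148 genes were higher and 93 lower in the members of both libraries, among them many cell cycle genes. Genes were compared by the CPM of the UMIs summed over cells. The size rule asked for 50 or more UMIs in all, a CPM ratio of 2 or more whose exact interval excludes 1, and detection in 5% or more of the cells on the higher side. The 148 genes were 2.32% and the 93 genes 1.46% of the 6376 tested. The gate chose cells on this contrast, so these counts describe the cells and support nothing further. In the DNA replication list 7 of 9 tested genes were higher, in the mitosis list 3 of 3, and in the condensin and chromatin list 10 of 12. Members were deeper than non-dividing cells, and when each cell was thinned to 3000 UMIs the counts were 27 higher and 24 lower of 3558 tested, with 18 of the 148 and 11 of the 93 among them. Of the 148, 124 passed again under the looser gate, and of the 93, 55.

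Pclaf, a PCNA-associated factor of DNA replication and repair, had 679 CPM in dividing and 1.99 CPM in non-dividing KO T cells, and 205 CPM in dividing and 5.33 CPM in non-dividing WT T cells. Stmn1, which destabilises microtubules, had 1254 CPM in dividing and 17.4 CPM in non-dividing KO cells, and 752 CPM in dividing and 31.6 CPM in non-dividing WT cells. Most KO members had these genes (Pclaf in 31 and Stmn1 in 34 of 43), whereas in WT a few cells carried the level, with Pclaf in 5 and Stmn1 in 7 of 17 members. A single WT cell held 26 of the 45 Pclaf UMIs and 65 of the 165 Stmn1 UMIs. Ube2c, the ubiquitin-conjugating enzyme of the anaphase-promoting complex, was 68.4-fold higher in KO and 50.1-fold higher in WT dividing cells. Cenpa, the histone that marks the centromere, was 4.97-fold higher in KO and 2.19-fold higher in WT. Of the MCM helicase that unwinds DNA at the fork, Mcm6 was 9.06-fold higher in KO and 3.90-fold higher in WT, and Mcm3 was 7.78-fold higher in KO and 5.14-fold higher in WT. Ratios of these genes were larger in the KO library than in the WT library, whereas Pola1, the catalytic subunit of DNA polymerase alpha, was 5.89-fold higher in KO and 10.8-fold higher in WT.

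Lower in dividing cells of both libraries were 4 of 12 tested genes of the quiescence list, 3 of 12 of the naive and recirculating list, 2 of 8 of the innate-like list and 2 of 6 of the tissue residency list. Ccl4, a chemokine of activated killer cells, had 180 CPM in dividing and 1131 CPM in non-dividing KO cells, and 182 CPM in dividing and 1259 CPM in non-dividing WT cells. The antiproliferative gene Btg1 had ratios of 0.277 in KO and 0.495 in WT, and its relative Btg2 of 0.407 in KO and 0.436 in WT. Ccr7, the receptor that guides T cells to lymph nodes, had ratios of 0.246 in KO and 0.371 in WT. Klrb1b and Klrb1c, receptors shared with NK cells, had ratios of 0.139 and 0.378 in KO, and of 0.208 and 0.321 in WT. Rgs1 and Itga1, genes of tissue-resident T cells, had ratios between 0.39 and 0.48 in both libraries. Tyrobp, an adaptor of NK cell receptors, had ratios of 0.271 in KO and 0.184 in WT.

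The promoters of 3 of these genes are printed because cell cycle genes carry known elements for the E2F factors, which act at the start of S phase, and for the MuvB complex, which acts later through the CHR element, often beside CCAAT boxes. Each sequence runs 5′ to 3′ on the gene's strand, 250 bases before to 50 after the start, from RefSeq on GRCm38.p6. Ube2c lies at chr2:164769679-164769978 (plus strand), Cenpa at chr5:30666636-30666935 (plus strand) and Mcm6 at chr1:128359656-128359955 (minus strand). Capitals mark matches on either strand to the letters TTTGAA or TTCGAA (CHR), CCAAT, and TTTCCCGC, TTTGGCGC, TTTCGCGC or TTTGCCGC (E2F), and overlapping matches are each counted.
Ube2c: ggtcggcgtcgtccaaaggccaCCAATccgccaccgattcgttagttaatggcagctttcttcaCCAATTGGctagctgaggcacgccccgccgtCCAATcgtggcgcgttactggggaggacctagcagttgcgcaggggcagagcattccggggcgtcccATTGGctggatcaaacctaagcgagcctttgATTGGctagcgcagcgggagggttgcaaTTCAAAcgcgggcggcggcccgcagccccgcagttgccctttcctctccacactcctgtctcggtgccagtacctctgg
Cenpa: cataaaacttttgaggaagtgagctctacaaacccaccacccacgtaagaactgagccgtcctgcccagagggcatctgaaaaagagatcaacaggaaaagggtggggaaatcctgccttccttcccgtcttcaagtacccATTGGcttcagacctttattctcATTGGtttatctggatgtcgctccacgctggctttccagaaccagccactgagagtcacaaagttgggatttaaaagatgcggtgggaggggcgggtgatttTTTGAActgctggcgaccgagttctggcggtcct
Mcm6: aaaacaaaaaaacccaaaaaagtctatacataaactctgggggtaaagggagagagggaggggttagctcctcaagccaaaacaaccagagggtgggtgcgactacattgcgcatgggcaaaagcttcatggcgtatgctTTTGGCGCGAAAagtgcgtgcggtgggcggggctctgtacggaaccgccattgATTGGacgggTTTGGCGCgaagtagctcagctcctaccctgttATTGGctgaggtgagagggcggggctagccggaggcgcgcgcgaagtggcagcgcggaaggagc
Ube2c held 1 CHR and 6 CCAAT matches and no E2F match, Cenpa held 1 CHR and 2 CCAAT matches, and Mcm6 held 2 CCAAT and 3 E2F matches and no CHR match. Of the 25 promoters found for the 30 mitosis genes, 76.0% held CHR letters and 68.0% held both CHR and CCAAT. Of the 22 promoters found for the 26 replication genes, 13.6% held CHR letters and 45.5% held E2F letters. Among all 27025 promoters, 19.4% held CHR letters, 7.57% held CHR and CCAAT, and 2.34% held E2F letters. A match is only a description of these letters in this window.

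By stage, most KO members had more mitosis than replication UMIs. Most WT members had fewer, and most WT members had only 2 or 3 gate UMIs. Summed over cells, the mitosis list had 4630 CPM in KO members and 1997 CPM in WT members. The replication list had 2788 CPM in KO members and 1719 CPM in WT members. With the looser gate the mitosis list had 5057 CPM in KO and 3472 CPM in WT, and the replication list 2430 CPM in KO and 1892 CPM in WT. Non-dividing T cells had 130 CPM (KO) and 163 CPM (WT) of mitosis genes. Per cell, a KO member had a median of 37 mitosis UMIs (0 to 260) and 21 replication UMIs (0 to 134), and a WT member a median of 2 mitosis UMIs (0 to 155) and 6 replication UMIs (1 to 110). Mitosis UMIs exceeded replication UMIs in 28 of 43 KO members (65.1%, 49.1 to 79.0%) and 5 of 17 WT members (29.4%, 10.3 to 56.0%). In 7 KO and 10 WT members the counts lay within 5 UMIs of each other, so the order in them is uncertain. Among members with at least 4 gate UMIs, mitosis UMIs were above in 24 of 32 in KO and 3 of 5 in WT. With 2 or 3 gate UMIs they were above in 4 of 11 in KO and 2 of 12 in WT. In non-dividing T cells, replication UMIs were also above more often, in 207 KO cells against 59 and in 265 WT cells against 78.

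**Figure D3:**
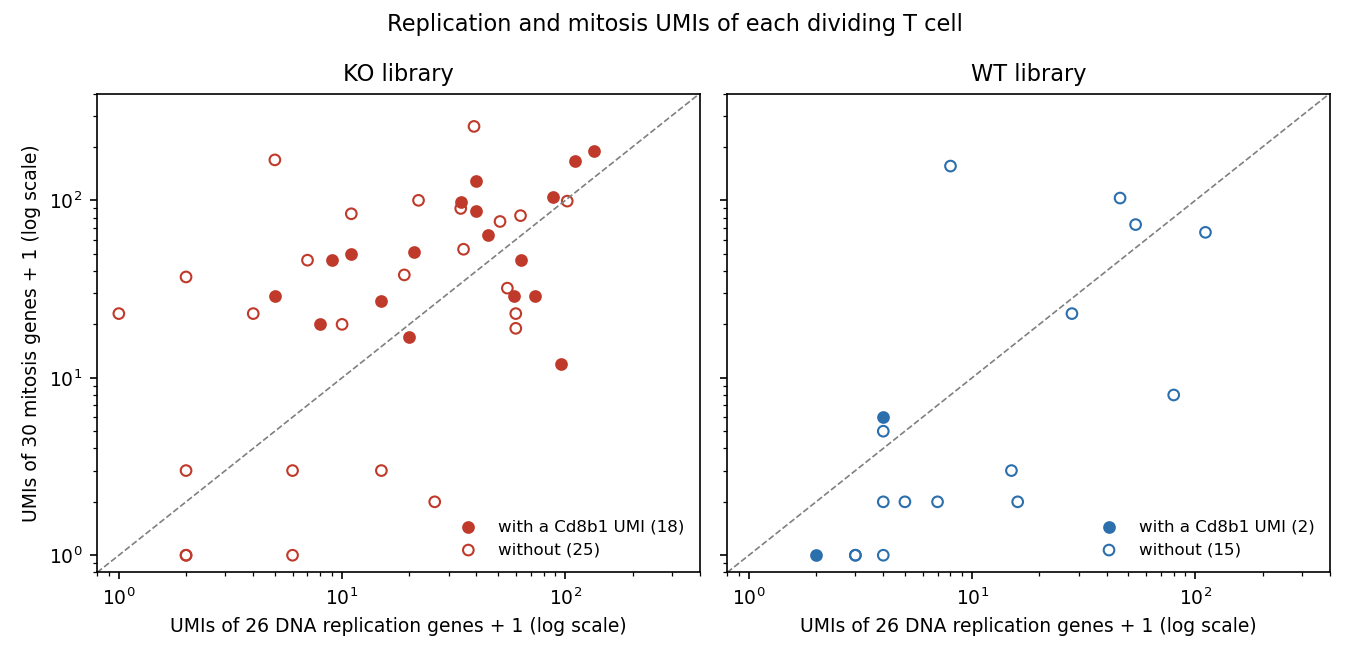
UMIs of the 30 mitosis genes against UMIs of the 26 DNA replication genes, each plus 1 and on log scales, in every dividing T cell, KO on the left and WT on the right. Filled points have a Cd8b1 UMI (18 KO, 2 WT cells) and the dashed line marks equal counts. Most KO cells lie in the upper part and above the line, and most WT cells lie near the origin.

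Between the libraries, 3025 genes had at least 50 UMIs over all members. Of these, 175 (5.79%) were higher and 101 (3.34%) lower in KO than in WT dividing T cells by the size rule. None of the 175 and 2 of the 101 also passed in non-dividing T cells. The median log2 ratio over the tested genes was 0.03. Under the looser gate 134 were higher and 149 lower of 5407 tested, and 38 of the 175 and 24 of the 101 passed again in the same direction, so most single-gene differences depend on which barcodes are let in. Among the 38 KO and 8 WT members with at least 10 replication and mitosis UMIs, 105 of the 175 and 48 of the 101 passed again. Of the 101, 12 had over 50% of their WT UMIs in 1 cell.

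The mitosis list had 13 of 29 measured genes (at least 20 UMIs) past the size rule upwards and none downwards, with a median log2 ratio of 1.45. Only 21 of the 29 had the 50 UMIs needed to pass, and in every list measured genes below that could not. Under the looser gate 6 mitosis genes passed, and the ratio of the summed levels was 1.46 in place of 2.32. The gate chose members on Mki67 and Top2a, of which KO members had more UMIs (median 11 against 3). Differences in mitosis and replication genes between the libraries therefore describe the members and support nothing further. Prc1, which bundles the microtubules of the central spindle (chr7:80294450-80316259, plus strand), had 0 to 10 UMIs per cell in KO members (median 2) and 0 to 4 in WT members (median 0). Summed, it had 216 CPM in KO and 50.2 CPM in WT, a ratio of 4.31 (2.32 to 8.88), and 2.31 under the looser gate. Ect2, the activator of the contractile ring, had a ratio of 5.06 (2.22 to 14.2), Cenpe, a kinetochore motor, of 4.42 (2.15 to 10.6), and Fbxo5, an inhibitor of the anaphase-promoting complex, of 6.16 (2.52 to 19.5). These 3 passed under the looser gate too, with 2.72, 2.0 and 3.43, but with the stricter marker removal described below for Cd8b1 the log2 ratio of Fbxo5 was -0.67. Ccnb1, the mitotic cyclin B1, had a ratio of 4.49 and only 1.58 under the looser gate. WT counts of these genes came from 2 to 4 cells each.

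Of the 23 measured replication genes 4 were higher and none lower, with a median log2 ratio of 0.81. Clspn, which relays the replication checkpoint, had 180 CPM in KO members and 59.3 CPM in WT members, with a ratio of 3.04 (1.70 to 5.92) and 2.95 under the looser gate. Prim1, the primase, had a ratio of 3.95, Mcm2 of 2.76 and Lig1, the ligase of Okazaki fragments, of 2.36, and each was under 2 with the looser gate. Rrm1 and Rrm2, the subunits of ribonucleotide reductase, had ratios of 2.41 and 2.66, with 1.61 and 1.71 under the looser gate, and Rrm2 had a log2 ratio of -0.53 after the stricter marker removal. The chromatin genes Hmgb2 and H2az1 had ratios of 2.12 and 2.13, with 1.41 and 1.2 under the looser gate. Hmgb2 was found in 42 of 43 KO members, with a median of 29 UMIs, and in 17 of 17 WT members, with a median of 7.

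The T cell subsets among the members differed between the libraries by the rule, and less or not at all under other settings. Cd8b1, the beta chain of the CD8 co-receptor (chr6:71322788-71337494, plus strand, GRCm38, GENCODE vM21), had a UMI in 18 of 43 KO members (41.9%, 27.0 to 57.9%) and 2 of 17 WT members (11.8%, 1.46 to 36.4%). In non-dividing T cells the shares were 16.8% in KO and 17.7% in WT. In endothelial barcodes, which were taken without any Cd3 UMI and should lack it, they were 0.318% in KO and 0.336% in WT, at medians of 7937 and 7929 UMIs. Its summed level was 294 CPM in KO members and 31.9 CPM in WT members, a ratio of 9.21 (4.37 to 23.3), against 0.965 in non-dividing cells. After thinning the members to 3000 UMIs, which left out 4 KO and 0 WT cells, Cd8b1 was found in 13 of 39 KO cells and 2 of 17 WT cells. Thinning before the rule turned the order, with Cd8b1 in 12 of 38 KO dividing cells (31.6%) and 7 of 17 WT dividing cells (41.2%). These are not the same cells as the members, since the exclusion acted on the thinned counts. The looser gate gave 30 of 71 KO cells (42.3%) and 12 of 37 WT cells (32.4%), and a CPM ratio of 1.71. Removing barcodes with over 1 UMI of 13 markers of other cells left 15 KO and 4 WT members, and there the log2 ratio was -0.74. Most of the Cd8b1 difference among members is therefore not seen once barcodes with 1 or 2 UMIs of the excluded genes are let in. Cd8a, the other chain, differed less by the rule. It had a UMI in 22 of 43 KO members (51.2%) and 5 of 17 WT members (29.4%), at 154 CPM in KO and 41.0 CPM in WT. Under the looser gate it was found in 50.7% of KO and 37.8% of WT dividing cells, with a CPM ratio of 1.38. Cd8a or Cd8b1 was found in 25 of 43 KO and 5 of 17 WT members.

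Counted the other way, 18 of 82 Cd8b1-positive gated T cells divided in KO (22%) and 2 of 99 in WT (2.02%), a ratio of 10.9 (2.60 to 45.5). Under the looser gate the counts were 30 of 117 in KO (25.6%) and 12 of 138 in WT (8.70%), a ratio of 2.95 (1.58 to 5.50). With each cell thinned before the rule was applied the ratio was 1.96 (0.810 to 4.72), an interval that includes 1. For gated T cells with Cd8a or Cd8b1 and no Cd4 the ratio was 5.42 (2.14 to 13.7) by the rule. It was 2.97 (1.68 to 5.27) under the looser gate and 2.19 (0.918 to 5.21) with thinning before the rule. The 18 KO members with Cd8b1 had a median of 103 replication and mitosis UMIs (26 to 322), and the 2 WT members had 1 and 8.

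Zbtb16, the PLZF factor of innate-like T cells (chr9:48654297-48836222, minus strand), went the other way. It had a UMI in 16 of 43 KO members (37.2%, 23.0 to 53.3%) and 12 of 17 WT members (70.6%, 44.0 to 89.7%), against 38.2% of KO and 34.7% of WT non-dividing T cells. Endothelial barcodes had it in 10.4% in KO and 12.3% in WT. After thinning the members it was found in 10 of 39 KO and 8 of 17 WT cells, with thinning before the rule in 11 of 38 KO (28.9%) and 5 of 17 WT cells (29.4%), and under the looser gate in 26 of 71 KO and 19 of 37 WT cells. Its level was 395 CPM in KO members and 1227 CPM in WT members, a ratio of 0.322 (0.267 to 0.387), but 46.5% of the WT UMIs came from 1 cell, the looser gate gave 0.725, and the 15 KO and 4 WT members left by the stricter marker removal gave a log2 ratio of 3.64. Of Zbtb16-positive gated T cells, 9.58% divided in KO and 6.19% in WT, a ratio of 1.55 (0.754 to 3.18). Members with at least 5 Zbtb16 UMIs numbered 7 in KO and 7 in WT. None of them had a Cd8b1 UMI. The 7 KO cells had a median of 122 replication and mitosis UMIs, and the 7 WT cells a median of 16.

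Cd4, the helper co-receptor, had a UMI in 3 of 43 KO members (6.98%) and 3 of 17 WT members (17.6%), and under the looser gate in 8 of 71 KO (11.3%) and 10 of 37 WT cells (27.0%). Foxp3, the factor of regulatory T cells, was found in 1 member of each library. Trdc, the constant region of the delta chain, was found in 1 KO and 2 WT members, and a Trgc UMI in 11 KO and 10 WT members. No co-receptor UMI at all was found in 15 KO and 9 WT members.

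**Figure D4:**
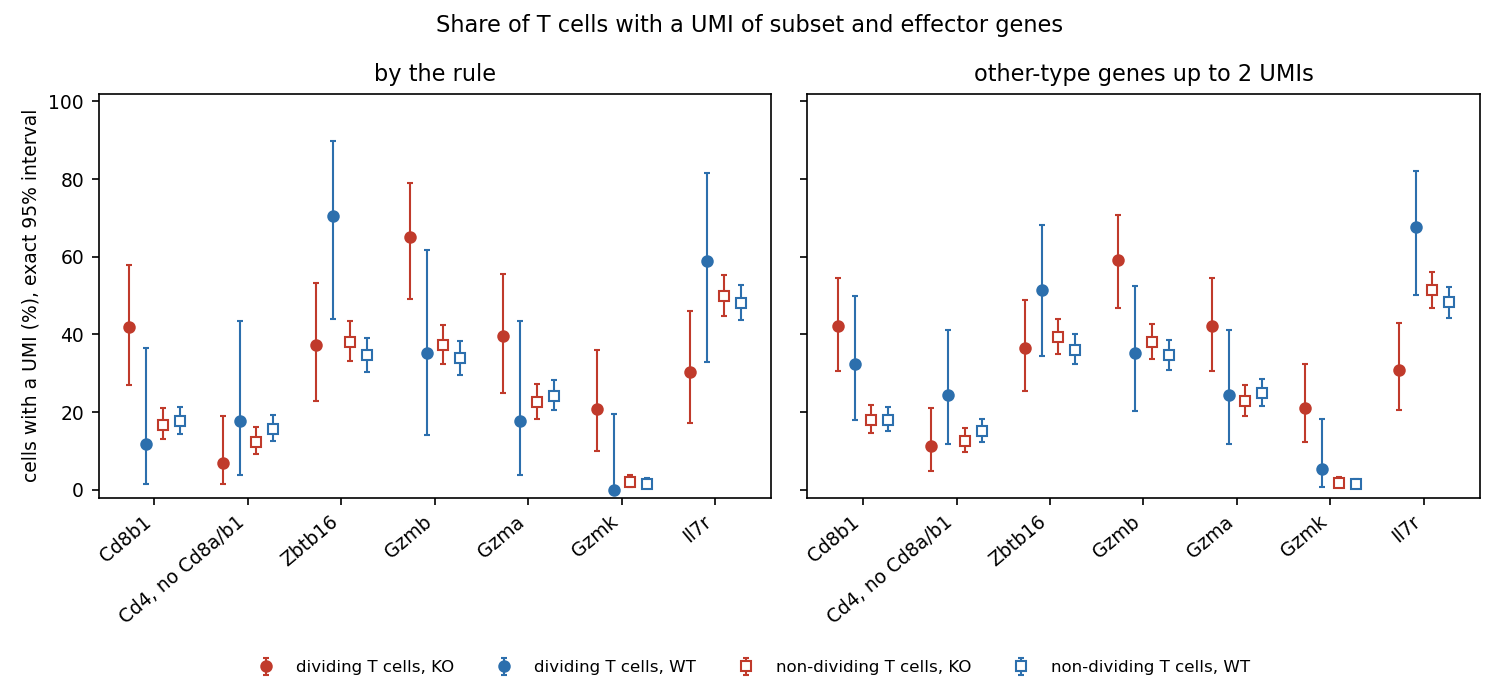
Share of cells with a UMI of each gene, in percent with exact 95% binomial intervals, for dividing (filled circles) and non-dividing (open squares) T cells, KO left of WT within each kind. The left panel uses the rule and the right panel the looser gate. The Cd8b1 shares of KO and WT dividing cells lie apart on the left (41.9 and 11.8%) and closer on the right (42.3 and 32.4%), and on the right the KO and WT intervals do not overlap for Il7r in dividing cells.

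Several cytotoxic genes were higher in the KO members under both gates. Of the 18 measured genes of the cytotoxic list 5 were higher and none lower, with a median log2 ratio of 0.20. The list had summed levels of 7919 CPM in KO and 4715 CPM in WT members, a ratio of 1.68 that was 2.73 under the looser gate, where 8 were higher. Per 10000 UMIs of a cell, the list had a median of 34.4 UMIs in KO members and 36.1 in WT members, and an upper quartile of 131 in KO and 69.9 in WT. In non-dividing T cells the list had 11822 CPM in KO and 11250 CPM in WT. Gzmb, the granzyme that triggers death of target cells (chr14:56258838-56262260, minus strand), had 0 to 76 UMIs per cell in KO members (median 1) and 0 to 26 in WT members (median 0). It was found in 28 of 43 KO members (65.1%) and 6 of 17 WT members (35.3%), and in 1.72% of KO and 1.93% of WT endothelial barcodes. After thinning, 19 of 39 KO and 5 of 17 WT members had it. Summed, it had 848 CPM in KO and 315 CPM in WT members, a ratio of 2.70 (2.09 to 3.53), and 5.22 (4.2 to 6.56) under the looser gate.

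Gzma, another granzyme, had 1402 CPM in KO members and 657 CPM in WT members, with ratios of 2.14 and, under the looser gate, 4.31, but 98 of its 144 WT UMIs came from 1 cell. That cell also had 4 Ncr1 UMIs and 0 Trac UMIs. Such cells added to the KO counts too. The KO member with 5 Ncr1 and 0 Trac UMIs held 54 Gzmb and 28 Gzma UMIs. The KO member with 2 Ncr1 and 0 Trac UMIs held 12 Gzmb and 57 Gzma UMIs. Gzma was found in 17 of 43 KO and 3 of 17 WT members, each of which also had Gzmb, and in 3.09% of KO and 3.57% of WT endothelial barcodes. Ccl5, a chemokine of effector and memory T cells (chr11:83525778-83530518, minus strand), had 3076 CPM in KO members and 1391 CPM in WT members, a ratio of 2.21 (1.96 to 2.51) and 4.33 under the looser gate. Its highest KO cell held 208 UMIs and its highest WT cell 71. The chemokine Ccl3 had 55 UMIs in 7 KO members and 2 UMIs in 1 WT member, a ratio of 11.4 (3.02 to 96.9), and 11 under the looser gate. Tbx21 (T-bet), the factor that drives the type 1 effector programme, had ratios of 2.32 (1.30 to 4.44) and 3.95 under the looser gate, and a log2 ratio of -0.12 in the 15 KO and 4 WT members left by the stricter marker removal. Ly6c2, a surface protein of effector and memory CD8 cells, had 467 CPM in KO and 77.5 CPM in WT members, a ratio of 6.02 (3.68 to 10.5) and 4.75 under the looser gate. In non-dividing T cells the ratio of Gzma was 0.842, and those of Gzmb, Ccl5, Ccl3, Tbx21 and Ly6c2 lay between 0.944 and 1.30.

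Gzmk, a granzyme of a further effector and memory set, was found in 9 of 43 KO members (20.9%) and 0 of 17 WT members, which allows a share of up to 19.5% in WT (exact upper limit). All 9 also had Gzma and Gzmb, and 7 had Cd8b1. Under the looser gate it was found in 15 of 71 KO and 2 of 37 WT dividing cells. In non-dividing T cells 1.92% in KO and 1.46% in WT had a UMI, and in endothelial barcodes 0.318% in KO and 0.294% in WT.

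Of 11 measured genes of naive and recirculating T cells 4 were lower in the KO members and none higher, with a median log2 ratio of -0.88 (-0.87 under the looser gate). Il7r, the receptor for the survival cytokine IL-7, had a UMI in 13 of 43 KO members (30.2%) and 10 of 17 WT members (58.8%), against 50% of KO and 48.2% of WT non-dividing T cells and 1.09% of KO and 1.43% of WT endothelial barcodes. After thinning, 7 of 39 KO and 6 of 17 WT members had it. Its levels were 112 CPM in KO and 301 CPM in WT members, a ratio of 0.372 (0.257 to 0.537), and 0.304 under the looser gate. Lef1, a transcription factor of naive T cells, had a ratio of 0.382 and Satb1, a chromatin organiser of T cells, of 0.456, with 0.508 and 0.548 under the looser gate, and Satb1 had a log2 ratio of 1.15 after the stricter marker removal. Ccr7 had a ratio of 0.488 and of 0.270 under the looser gate, but 60.9% of its WT UMIs came from 1 cell.

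**Figure D5:**
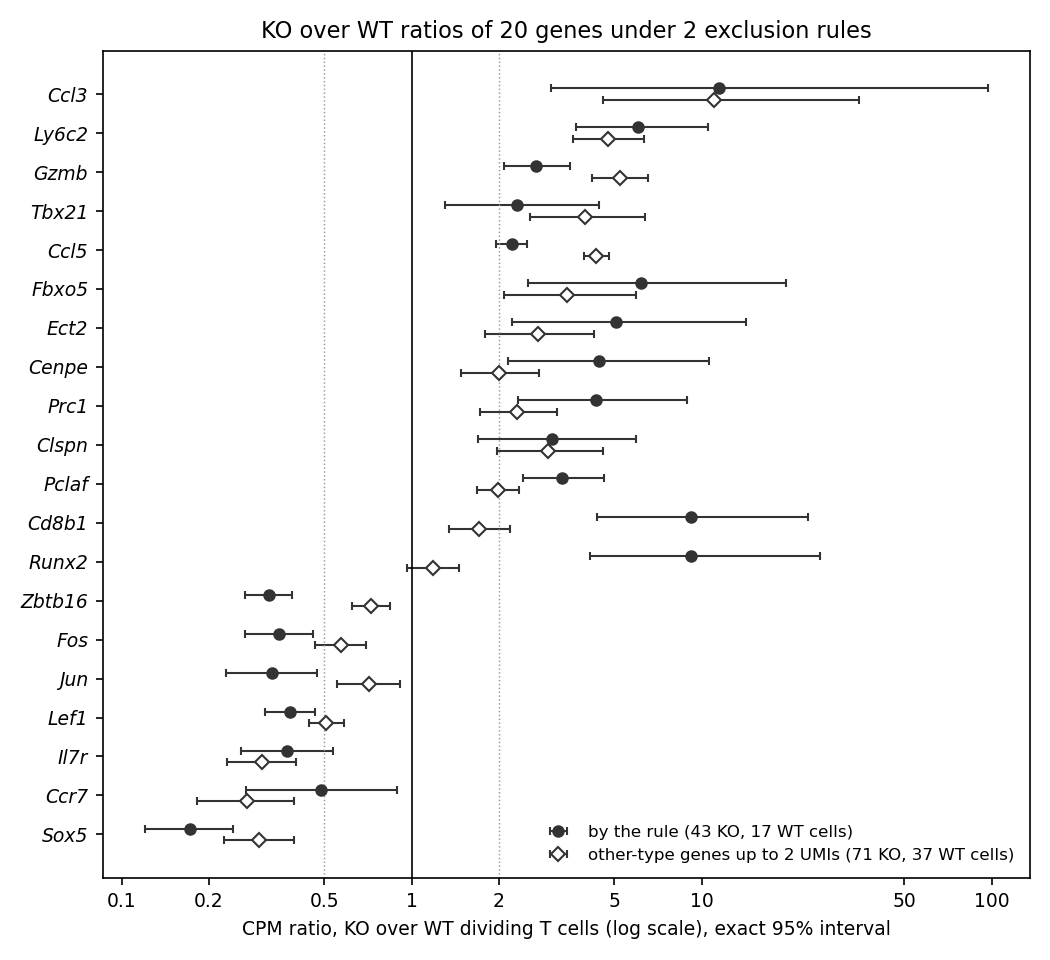
Ratios of CPM in KO over WT dividing T cells for 20 genes on a log axis, with exact 95% intervals. Filled circles use the rule (43 KO, 17 WT cells) and open diamonds the looser gate (71 KO, 37 WT cells); dotted lines mark ratios of 0.5 and 2. Gzmb, Ccl5 and Ly6c2 stay above 2 under both, Cd8b1 and Runx2 move towards 1, and Il7r and Ccr7 stay below 0.5.

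Most immediate-early genes were lower in the KO members by the rule, and by less under the looser gate. There the ratio of the summed levels of the list below was 0.844 (0.798 to 0.892). Of 11 measured genes of the dissociation response list, which cells can induce during tissue digestion, 7 were lower, with a median log2 ratio of -1.20 (-0.49 under the looser gate, where none passed). Fos had 197 CPM in KO and 565 CPM in WT members, a ratio of 0.349 (0.266 to 0.457) and 0.570 under the looser gate. It was found in 28 of 43 KO members and 17 of 17 WT members. Jun had a ratio of 0.329 (0.711 under the looser gate) and Zfp36, which destabilises cytokine messages, of 0.341 (0.644). Nr4a1 and Nr4a3, nuclear receptors induced by T cell receptor signals, had ratios of 0.405 and 0.270, with 0.630 and 0.710 under the looser gate. In non-dividing T cells the ratios of these 5 genes lay between 0.904 and 0.961 by the rule. Under the looser gate the non-dividing ratios were 0.843 (0.785 to 0.906) for Fos and 0.809 (0.750 to 0.873) for Jun. They were 0.861 for Nr4a1 and 0.955 for Nr4a3. The interval of Jun in dividing cells there, 0.554 to 0.913, overlaps its non-dividing interval. The part of tissue handling in the other differences was not tested.

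Of the 10 genes with the largest ratios, 6 passed the size rule again under the looser gate, and of the 10 with the smallest, 8. Runx2, a transcription factor, had 133 UMIs in KO and 6 in WT members, a ratio of 9.22 that was 1.18 under the looser gate. Mxi1, an antagonist of Myc, had a ratio of 9.85 (3.24 to 48.9) and 3.67 under the looser gate, and Plek, a substrate of protein kinase C, had 7.91 and 2.61. Among the lowest, Sox5, a transcription factor, had a ratio of 0.172 (0.299 under the looser gate), with 62.9% of its WT UMIs from 1 cell. Myo1e, an unconventional myosin, had 0.232 (0.581 under the looser gate), with 49.1% of its WT UMIs from 1 cell. Adk, adenosine kinase, had 130 UMIs in KO and 193 in WT members, a ratio of 0.280, and 0.376 under the looser gate. Pck1, a hepatocyte enzyme of glucose synthesis, had a ratio of 0.245 in members and 0.408 in non-dividing T cells. Under the looser gate its ratios were 0.314 in dividing and 0.912 (0.788 to 1.05) in non-dividing T cells. After the stricter marker removal its log2 ratio in members was 0.91.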

How the data were processed

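Libraries were made with a Chromium 3' v3 kit, per the labels. What the authors deposited are counts (whole UMIs of a gene in a barcode, not normalized). Cell Ranger 8.0.1 made them, as the matrices' headers state, and STAR and mm10 are in the submitters' processing notes. The files hold 33696 identifiers (33670 symbols), of which 1735 are absent from GENCODE vM21.

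UMIs were summed over cells of a group and scaled to 1000000 (CPM). Ratios of CPM carry exact Clopper-Pearson intervals given the 2 counts, levels exact Poisson and shares exact binomial intervals, and ratios of shares a log-normal approximation. Log2 ratios used 0.5 added to each sum, and the floor is 3 counts. Where a gene's level was under 10% of the highest of hepatocyte, Kupffer, endothelial and B cell barcodes in each library, it was not called, since it may be free RNA (2 otherwise higher, 2 otherwise lower). Free RNA was not subtracted. Doublets were scored by Scrublet (scanpy 1.11.5, expected rate 8%, 30 components), with 304 KO and 428 WT calls (2.65% and 3.44%), and were removed only as an alternative. Python 3.11.15, numpy 2.4.6, scipy 1.17.1 and pandas 2.3.3 were used. The gene comparison was also run on simulated Poisson counts, which hold no differences between cells and so do not cover levels carried by 1 cell.

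Named genes are the 10 largest KO over WT ratios in each direction past the size rule (mitochondrial, ribosomal protein, haemoglobin and receptor segment genes left out), the 15 largest and smallest dividing over non-dividing ratios, up to 4 list members past the rule in each direction (otherwise the 2 with most UMIs), and gate and label genes. The text names part of these; Gzma and Gzmk were named from a list after seeing values. Members and lists were chosen with earlier results of these data known. The looser gate, the other looser exclusions, thinning after the rule and the list UMI thresholds were chosen after seeing the data.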

Additional observations from a re-analysis of the deposited data

Results flagged for a closer look

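Cd8b1 moved in opposite directions with division in the libraries. Its log2 ratio of dividing over non-dividing T cells was 1.62 in KO and -1.54 in WT. Myo1e did the reverse, with -1.03 in KO and 1.10 in WT. With 1 library each, these differences between the libraries were not tested, and the WT values rest on 7 Cd8b1 UMIs in 2 cells and on a Myo1e count of which 49.1% came from 1 cell.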

How the results depend on the processing

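Direction was kept in 771 of 784 comparisons of the 56 named genes past the size rule, and in 344 of 392 comparisons of the medians of 28 lists. The settings of at least 20 UMIs, no low-count filter and at most 10% mitochondrial UMIs left these ratios as they were. Their comparisons, included in both counts, could not change direction. Removing barcodes with over 1 UMI of 13 other-type markers left 15 KO and 4 WT members; the dividing shares were 6.76% in KO and 1.56% in WT, the Cd8 share of KO members was 40%, the Cd4 share of WT members 0, the ratio of Cd8 shares 0.80 (1.98 by the rule), and 29 genes were higher and 31 lower. The log2 ratio changed sign there for Cd8b1 (-0.74), Fbxo5 (-0.67), Maf (0.65), Nfia (0.28), Pck1 (0.91), Rrm2 (-0.53), Satb1 (1.15), Tbx21 (-0.12), Top2a (-0.20) and Zbtb16 (3.64), on very few WT cells. Thinning before the rule gave a Cd8 share of 36.8% in KO, a Cd4 share of 0 in WT and a ratio of Cd8 shares of 0.895. Up to 1 UMI of excluded genes in each pair turned Irf1 (-0.0377) and Runx2 (-0.0553), and no exclusion turned Sh2d1a (0.18). The WT dividing share was 5.23% under the looser gate and 7.0% with no exclusion, where 332 genes were lower in KO. At least 20 UMIs gave 309 genes higher and 309 lower, and no low-count filter 358 and 492. For dividing over non-dividing cells, thinning gave 27 higher and 24 lower, at least 20 UMIs 230 higher, and the looser gate 310 and 190. The cause of these changes was not tested. No paired analysis was possible because each genotype has 1 library. The 17 WT cells limit every comparison: 1 WT UMI in the members is 4.56 CPM.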

Other observations

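In several lists no gene passed the size rule between KO and WT dividing T cells, in either direction. Enough UMIs to pass were found for 3 checkpoint, 9 glycolysis, 4 p53 target, 9 quiescence and 9 biosynthesis and Myc target genes. Under the looser gate 2 checkpoint genes and 1 quiescence gene were higher, and 1 quiescence and 1 biosynthesis gene lower, in KO. Tox, a factor of chronically stimulated T cells, had 596 CPM in KO and 939 CPM in WT members, and the order turned under the looser gate, with 819 CPM in KO and 639 CPM in WT. Ctla4, an inhibitory receptor, had 299.8 CPM in KO and 219 CPM in WT members, and a ratio of 1.40 under the looser gate.

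Receptor V segments were sparse. A Trbv UMI was found in 7 of 43 KO and 3 of 17 WT members, with no segment in more than 2 members of a library, so clonal relations could not be read. Trgv2, of the gamma chain, was found in 5 KO and 4 WT members.

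Slc15a2, a peptide transporter, had 21 UMIs in 14 of 43 KO members and 0 in WT members (floor 13.7 CPM). In non-dividing T cells it had 210 UMIs in 123 of 364 KO cells and 0 in 479 WT cells. Dividing cells of the looser gate had 57 UMIs in KO and 1 in WT. It was looked at because earlier results of these data gave it as different in many cell classes.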
